A study of Mus musculus with 6 samples.

Results

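To investigate how Th17 cells affect the lipid genes of kidney fibroblasts, 33 genes of cholesterol and fatty acid synthesis were followed in the RNA-seq data. The members were taken by gene name from the 34745 genes of the count table, and all 33 were found there. They comprised 18 enzymes of sterol synthesis, 5 genes that regulate sterol supply, 7 enzymes of fatty acid synthesis and 3 genes of cholesterol efflux and receptor turnover. The study compared primary renal fibroblasts of WT mice that were cultured alone (3 libraries) with the same kind of cells kept for 24 h below Th17 cells (3 libraries). The Th17 cells were mouse spleen CD4+ T cells polarised in culture, and they sat in an insert with 0.4 μm pores that was placed once the fibroblasts had adhered for 6 h, so that the medium but not the surface was shared. RNA was taken from the fibroblasts below the insert. Both groups had the same genotype and digested-kidney origin and differed in the labels only by the presence of Th17 cells. The sources used here give neither whether the lone fibroblasts had an empty insert nor whether replicate libraries were separate wells, cultures or animals. The p-values therefore measure the spread between these libraries, which may be technical.

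Cholesterol is built from acetyl-CoA through mevalonate, farnesyl diphosphate and squalene, and fatty acids are built from acetyl-CoA through malonyl-CoA. When membranes of the endoplasmic reticulum are low in sterol, SCAP carries the SREBP transcription factors to the Golgi, where they are cut and released to switch on both pathways. When sterol is plentiful, INSIG proteins hold SCAP back, and oxysterols activate LXR, which raises the efflux transporters. Cultured fibroblasts are the cells in which much of this feedback was first studied.

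The libraries held between 12050529 and 13209581 counts. All 10 fibroblast markers listed were detected, and 8 of them were lower and 1 higher in coculture. That is 90% called, beside 37.1% of all genes tested (17.1% higher and 20.0% lower). Of the 10 T cell markers, Cd3d, Cd2, Il17a and Il17f had no count in any library and 2 were tested. Trac had between 20 and 41 counts in each library and was not called, and Lck fell from 49, 68 and 59 counts alone to 33, 34 and 23 in coculture (adjusted p = 0.00755, edgeR). Of the 10 adipocyte markers, Adipoq, Lep, Cidec, Cfd, Retn and Adig had no count and 3 were tested. Fabp4 fell from 239, 176 and 148 counts to 105, 118 and 118 (adjusted p = 0.00543, edgeR), and Pparg and Lipe, detected in every library, had log2 fold changes of 0.92 and 0.58 and were not called. The summed level was between 5.82 and 8.69 CPM (counts scaled by TMM to a common library total) alone and between 4.79 and 5.58 CPM in coculture for the T cell markers, and between 18.3 and 23.2 CPM and between 14.9 and 17.7 CPM for the adipocyte markers. Their part in the results was not tested. The summed level of the 10 epithelial markers was between 5.41 and 6.40 CPM alone and between 5.80 and 6.68 CPM in coculture. The macrophage markers moved between the groups and are given beside the efflux genes. These are bulk libraries, so fewer cells of a type and less RNA per cell cannot be told apart.

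The promoters of 4 members that the results turn on are shown, so that the letters near the start of a gene whose transcript fell or rose can be read beside its values. RefSeq promoter windows of GRCm38.p6, from 250 bases before to 50 after the start, were matched by symbol for 26 of the 33 members. The 250 bases before the start are printed 5′ to 3′ on the strand of the gene, and lie at chr13:119690101-119690350 on the plus strand for Hmgcs1, chr8:122443423-122443672 on the minus strand for Mvd, chr11:120824548-120824797 on the minus strand for Fasn and chr4:53159896-53160145 on the minus strand for Abca1. Capitals mark matches, on either strand, to TCACNCCAC (a sterol regulatory element, bound by SREBP), CCAAT (bound by NF-Y), GGGCGG (bound by Sp1) and CACGTG (an E-box).
Hmgcs1: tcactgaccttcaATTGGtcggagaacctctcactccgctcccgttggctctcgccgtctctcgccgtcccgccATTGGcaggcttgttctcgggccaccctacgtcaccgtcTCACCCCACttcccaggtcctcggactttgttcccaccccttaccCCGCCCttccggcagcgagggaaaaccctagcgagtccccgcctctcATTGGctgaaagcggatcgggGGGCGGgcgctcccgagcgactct
Mvd: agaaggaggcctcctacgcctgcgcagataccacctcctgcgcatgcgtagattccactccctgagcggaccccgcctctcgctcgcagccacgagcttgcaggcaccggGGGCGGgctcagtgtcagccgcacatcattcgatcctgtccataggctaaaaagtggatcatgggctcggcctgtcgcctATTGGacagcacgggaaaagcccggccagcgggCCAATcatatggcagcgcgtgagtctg
Fasn: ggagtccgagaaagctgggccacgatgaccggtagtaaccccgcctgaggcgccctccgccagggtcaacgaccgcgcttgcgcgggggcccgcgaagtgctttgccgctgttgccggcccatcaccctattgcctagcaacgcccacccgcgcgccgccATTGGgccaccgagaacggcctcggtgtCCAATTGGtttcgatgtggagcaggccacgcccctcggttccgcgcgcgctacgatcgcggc
Abca1: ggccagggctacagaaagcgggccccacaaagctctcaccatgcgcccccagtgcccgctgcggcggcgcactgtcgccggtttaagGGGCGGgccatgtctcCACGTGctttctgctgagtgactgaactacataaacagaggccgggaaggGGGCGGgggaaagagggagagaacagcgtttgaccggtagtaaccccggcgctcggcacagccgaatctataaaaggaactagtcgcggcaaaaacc
In the Fasn promoter the run CCAATTGG holds a CCAAT match on each strand, which overlap. In the whole 300-base windows, CCAAT occurred in 21 of the 26 members (80.8%) and in 41.1% of 27025 genes, and GGGCGG in 22 members (84.6%) and 38.2% of genes. CACGTG occurred in 6 members (23.1%) and 8.09% of genes. TCACNCCAC occurred in 1 member, Hmgcs1, as TCACCCCAC from 137 to 129 bases before the start, and in 1.44% of genes. Counted over all 32851 promoter windows, the shares were 37.4% for CCAAT, 35.7% for GGGCGG, 7.15% for CACGTG and 1.24% for TCACNCCAC. The lower members had CCAAT in 4 of the 5 with a window and GGGCGG in 5 of 5, and the higher members had each in 2 of 3. The Abca1 window had GGGCGG and CACGTG but no CCAAT. A match describes the letters and is not a measured binding site. Only these exact strings were searched, so variant forms of a site were not counted.

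To determine which members changed, fragment counts were compared by the quasi-likelihood test of edgeR, and p was adjusted after Benjamini and Hochberg over all 13088 genes tested. A gene was called with an adjusted p below 0.05. All 33 members passed the filter on low counts. Of them 11 were called (33.3%), 4 higher and 7 lower in coculture, against 37.1% of all genes tested, of which 17.1% were called higher and 20.0% lower. The members were thus called at about the share of the background, and their median log2 fold change was 0.03 beside 0.0038 over all genes tested. Under the study's own rule, which also asks for a fold change above 2, only Abca1 was called, against 11.6% of all genes (3.87% higher and 7.78% lower). The groups did not overlap in 17 members, 9 higher and 8 lower, against 50.4% of all genes (24.3% higher and 26.1% lower). The split depended on the scaling. With library size alone 9 members were higher and 7 lower. The whole table shifted the same way, with 2916 genes higher and 2280 lower, against 2244 and 2612 in the main fit.

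**Figure D1:**
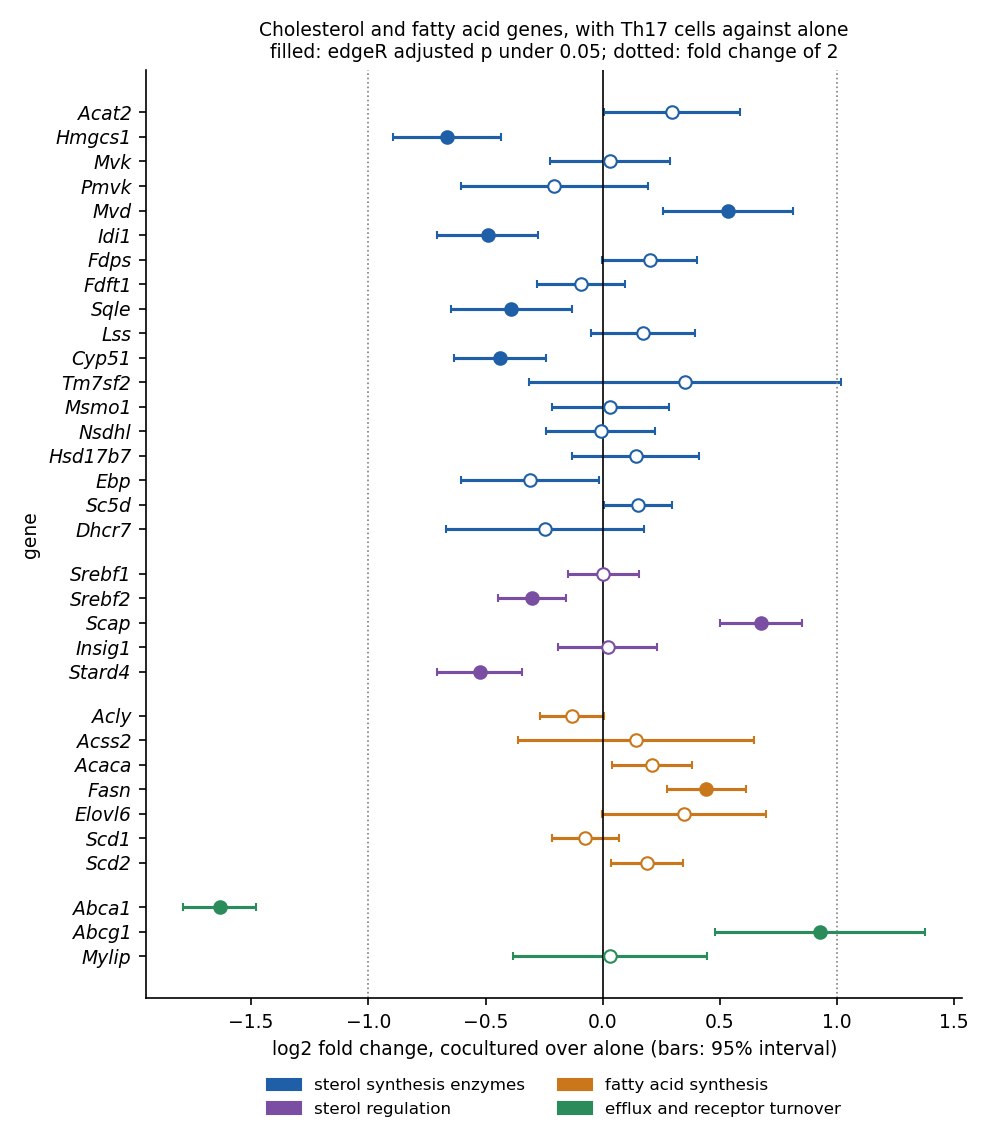
Log2 fold change of each of the 33 members, cocultured over alone (x axis), with its 95% interval from the edgeR fit, n = 3 libraries a group. Filled points were called at an adjusted p below 0.05, colours give the group of genes and dotted lines mark a fold change of 2, which only Abca1 passes.

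The 18 sterol synthesis enzymes moved in both directions. Hmgcs1, Idi1, Sqle and Cyp51 fell, Mvd rose, and the other 13 did not pass the test. Thus 5 of 18 (27.8%) were called, beside 37.1% of all genes tested (17.1% higher and 20.0% lower). The log2 fold changes ranged from −0.67 to 0.53 with a median of 0.01, and lay above 0 in 9 enzymes and below 0 in 9. The enzymes that fell stand at separate points, from an early step of the pathway (Hmgcs1) through isopentenyl diphosphate (Idi1) and squalene (Sqle) to lanosterol (Cyp51).

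Hmgcs1 (ENSMUSG00000093930, chr13:119690462-119708086), the cytosolic synthase that makes HMG-CoA, had 128, 118 and 129 CPM in the lone libraries and 89.7, 80.0 and 67.1 CPM in the cocultured libraries. All 3 cocultured libraries were below all 3 lone ones. The log2 fold change was −0.67 ± 0.102 (SE) with a 95% interval of −0.90 to −0.43 (adjusted p = 0.000874, edgeR). Per length it was the most abundant sterol enzyme in every library, at 37.9 ± 1.80 FPKM (SD, n = 3) alone and 24.9 ± 3.52 FPKM in coculture. It made up between 22.7 and 24.2% of the summed FPKM of the 18 enzymes alone and between 15.2 and 18.3% in coculture. Its promoter, printed above, is the 1 window with a match to TCACNCCAC among the 26 members that had a window.

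Idi1 (chr13:8885501-8892451), the isomerase of isopentenyl diphosphate, had 35.5, 33.1 and 32.5 CPM alone and 25.6, 24.5 and 21.8 CPM in coculture. The groups did not overlap, and the log2 fold change was −0.49 ± 0.0951 (SE) (adjusted p = 0.00327, edgeR). Cyp51 (chr5:4081145-4104746), the lanosterol demethylase, had 95.1, 90.2 and 96.2 CPM alone and 70.9, 75.6 and 61.2 CPM in coculture. It too was lower in every cocultured library, with a log2 fold change of −0.44 ± 0.0867 (SE) (adjusted p = 0.00367, edgeR). The call of both genes, and of Hmgcs1, was kept in all 15 alternatives that gave a fold change and under glmTreat.

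Sqle (chr15:59315077-59331192), the squalene epoxidase, had 79.2, 71.4 and 89.4 CPM alone and 67.6, 63.2 and 52.3 CPM in coculture. The groups did not overlap, but the lowest lone library lay close to the highest cocultured one. Its log2 fold change was −0.39 ± 0.114 (SE) (adjusted p = 0.0252, edgeR), and it lost its call in 6 of the 15 alternatives that gave a fold change, with an adjusted p of up to 0.0868, and also under glmTreat against a fold change of 1.2. The 6 were both limma fits and the fits without lone replicate 1, lone replicate 3, cocultured replicate 2 or cocultured replicate 3.

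Mvd (chr8:122433596-122443422), the decarboxylase that makes isopentenyl diphosphate, was the only sterol enzyme that rose. It had 9.16, 8.45 and 7.95 CPM alone and 12.8, 11.7 and 12.6 CPM in coculture, with every cocultured library above every lone one. The log2 fold change was 0.53 ± 0.122 (SE) with a 95% interval of 0.26 to 0.81 (adjusted p = 0.00775, edgeR). Mvd thus rose at the step just before that of Idi1, whose transcript fell.

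The enzymes that were not called included genes at every stage. Early in the pathway, Acat2, a thiolase that joins acetyl-CoA units, had a log2 fold change of 0.29 ± 0.128, and the mevalonate kinases Mvk and Pmvk had 0.03 ± 0.113 and −0.21 ± 0.177 (SE). Fdps, which makes farnesyl diphosphate, had 0.20 ± 0.0890, Fdft1, the squalene synthase, −0.09 ± 0.0829, and Lss, which closes the ring to lanosterol, 0.17 ± 0.0985 (SE). None of these 6 had an adjusted p below 0.103 (edgeR). In Acat2 and Fdps the cocultured libraries nevertheless all lay above the lone ones, at 22.5, 23.5 and 22.0 against 20.4, 19.9 and 15.0 CPM for Acat2 and 61.8, 61.8 and 69.8 against 54.7, 61.5 and 52.1 CPM for Fdps. Both were called with library size alone and in limma on log2(FPKM + 0.1).

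After lanosterol, the sterol reductase gene Tm7sf2 had a log2 fold change of 0.35 ± 0.294 (SE), with the widest interval of the 33 members (−0.32 to 1.02). It was also the least abundant member per length, at 0.300 ± 0.0848 FPKM (SD, n = 3) alone. Msmo1, Nsdhl and Hsd17b7, which act together to remove methyl groups from the sterol ring, had 0.03 ± 0.110, −0.01 ± 0.103 and 0.14 ± 0.120 (SE). The 95% intervals for Msmo1 and Nsdhl, −0.22 to 0.28 and −0.24 to 0.22, bound the change these data allow. Ebp, a sterol isomerase, had −0.31 ± 0.130, Sc5d, a desaturase, 0.15 ± 0.0643, and Dhcr7, which makes cholesterol from its last precursor, −0.25 ± 0.187 (SE). Sc5d did not overlap between the groups, with 59.1, 58.8 and 59.5 CPM alone and 67.0, 64.7 and 65.3 CPM in coculture, yet its adjusted p was 0.0975 (edgeR). It was called with library size alone and in both limma fits. Dhcr7 had 13.3, 12.9 and 14.9 CPM alone and 12.9, 13.5 and 8.14 CPM in coculture, so that its lower mean came from cocultured replicate 3.

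That library was often low. Cocultured replicate 3 was the lowest of its group in 11 of the 18 sterol enzymes (61.1%) and in 21 of the 33 members (63.6%), against 39.0% of all genes tested. The summed FPKM of the 18 enzymes was between 158 and 165 in the lone libraries and 155, 152 and 141 in the cocultured ones. In CPM, which unlike FPKM was scaled by TMM, the sum was between 711 and 747 alone and between 609 and 671 in coculture.

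**Figure D2:**
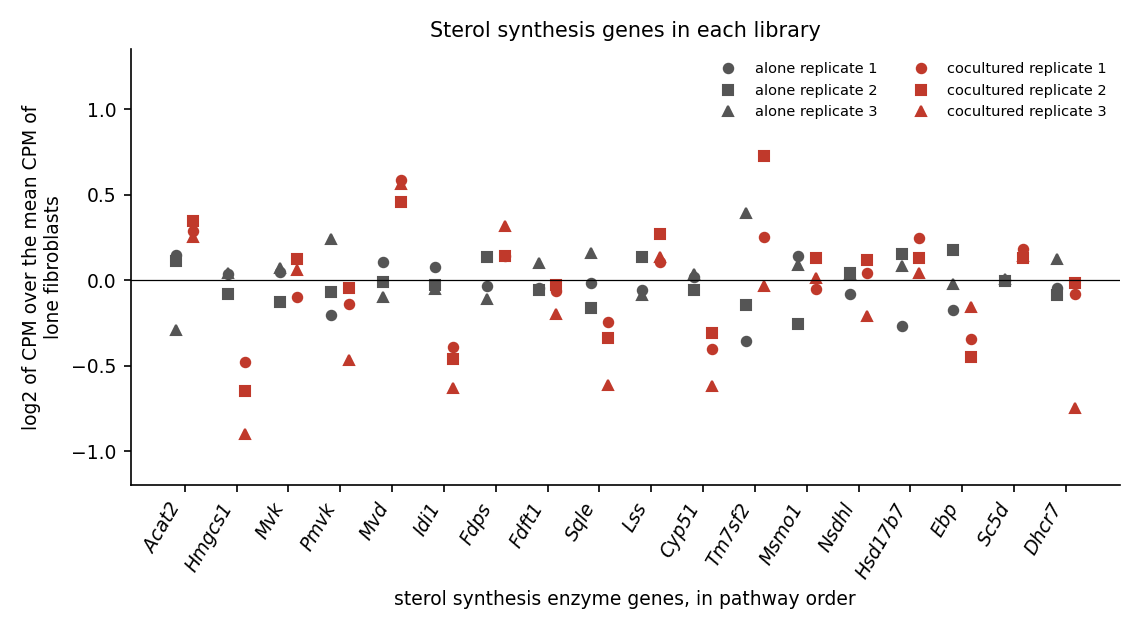
Log2 ratio of each library's CPM to the mean CPM of the lone libraries (y axis), for the 18 sterol synthesis enzymes in pathway order. Grey symbols are the 3 lone and red symbols the 3 cocultured libraries, with 1 shape a replicate number. The red points lie below the grey ones in Hmgcs1, Idi1, Sqle and Cyp51 and above them in Acat2, Mvd, Fdps and Sc5d. The groups thus did not overlap in 8 of the 18, beside 50.4% of all genes tested (24.3% higher and 26.1% lower).

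Among the 5 regulators, Scap rose and Srebf2 and Stard4 fell, while Srebf1 and Insig1 did not pass the test. Thus 3 of 5 (60%) were called, beside 37.1% of all genes tested. Scap (chr9:110333288-110384950), which encodes the escort of the SREBPs, had 45.2, 50.7 and 46.0 CPM alone and 72.6, 79.6 and 74.7 CPM in coculture. All cocultured libraries were higher, with a log2 fold change of 0.68 ± 0.0773 (SE) and a 95% interval of 0.50 to 0.85 (adjusted p = 0.000144, edgeR). Srebf2 (chr15:82147266-82205376), which encodes the SREBP that acts mainly on sterol genes, had 137, 143 and 147 CPM alone and 117, 119.9 and 109 CPM in coculture. It was lower in every cocultured library by a smaller amount, a log2 fold change of −0.30 ± 0.0642 (SE) (adjusted p = 0.00541, edgeR). Stard4, which carries cholesterol between membranes, had 36.9, 36.8 and 35.5 CPM alone and 26.4, 24.8 and 24.6 CPM in coculture. Its log2 fold change was −0.53 ± 0.0803 (SE) (adjusted p = 0.000858, edgeR), with no overlap between the groups.

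Srebf1, which encodes the SREBPs that act mainly on fatty acid genes, had 57.3, 58.5 and 60.6 CPM alone and 59.3, 57.7 and 59.6 CPM in coculture. The groups overlapped, and the 95% interval of the log2 fold change was −0.15 to 0.15. Insig1, which retains SCAP in the endoplasmic reticulum, had 55.0, 54.1 and 54.6 CPM alone and 50.2, 53.0 and 62.9 CPM in coculture. The cocultured libraries lay on both sides of the lone ones, with a 95% interval of −0.19 to 0.23. Within a library, the ratio of Scap to Srebf2 FPKM was 0.186 ± 0.0120 (SD, n = 3) alone and 0.368 ± 0.0173 (SD, n = 3) in coculture.

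The 7 fatty acid enzymes had a median log2 fold change of 0.19, and Fasn was the 1 member called (14.3%, below the 37.1% of all genes called and the 17.1% called higher). Fasn (ENSMUSG00000025153, chr11:120805846-120824547), the synthase that makes palmitate, had 169, 176 and 178 CPM alone and 241, 255 and 214 CPM in coculture. Every cocultured library was above every lone one. The log2 fold change was 0.44 ± 0.0737 (SE) with a 95% interval of 0.28 to 0.61 (adjusted p = 0.00140, edgeR), and the call was kept in all 15 alternatives that gave a fold change and under glmTreat.

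The enzymes upstream of Fasn did not pass the test. Acly, which makes cytosolic acetyl-CoA from citrate, had 239.9, 256 and 248 CPM alone and 232, 232 and 215 CPM in coculture, with every cocultured library below every lone one (log2 fold change −0.13 ± 0.0605 (SE), adjusted p = 0.119, edgeR). Acss2, which makes acetyl-CoA from acetate, was at the low end of the members with 0.371 ± 0.0583 FPKM alone and 0.427 ± 0.101 FPKM in coculture (SD, n = 3 each). Acaca, the carboxylase that makes malonyl-CoA, had 41.0, 37.5 and 40.9 CPM alone and 45.4, 47.4 and 45.3 CPM in coculture. Its groups did not overlap, and its log2 fold change of 0.21 ± 0.0755 (SE) missed the threshold (adjusted p = 0.0574, edgeR). It passed with library size alone, with upper quartile factors and with at least 10 counts in every library. The ratio of Fasn to Acly FPKM was 0.413 ± 0.00897 (SD, n = 3) alone and 0.614 ± 0.0292 (SD, n = 3) in coculture.

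The desaturases Scd1 and Scd2, which put the first double bond into saturated fatty acids, were the most abundant members per length. Scd2 had 139 ± 1.18 FPKM alone and 166 ± 13.1 FPKM in coculture, and Scd1 had 45.0 ± 0.731 and 44.6 ± 2.63 FPKM (SD, n = 3 each). Scd2 alone made up between 60.1 and 61.3% of the summed FPKM of the 7 enzymes in the lone libraries and between 62.9 and 64.0% in the cocultured ones. In CPM, Scd2 had 783, 769.7 and 777 alone and 929, 929 and 799.8 in coculture, with replicate 3 close to the lone libraries. The log2 fold change was 0.19 ± 0.0676 (SE) (adjusted p = 0.0545, edgeR). Scd2 passed the threshold in 7 alternatives, among them the fit without cocultured replicate 3, where the adjusted p was 0.00151. Scd1 had 219, 223 and 225 CPM alone and 223, 214 and 197 CPM in coculture, which overlapped (log2 fold change −0.07 ± 0.0634 (SE), adjusted p = 0.392, edgeR). The ratio of Scd2 to Scd1 FPKM was 3.10 ± 0.0630 (SD, n = 3) alone and 3.72 ± 0.129 (SD, n = 3) in coculture. These paralogs are similar in sequence, and how fragments that fit both were assigned was not given in the sources used here.

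Elovl6, which lengthens palmitate, had 16.5, 15.2 and 18.9 CPM alone and 25.4, 21.8 and 17.1 CPM in coculture. Cocultured replicates 1 and 2 were above all lone libraries and replicate 3 was among them. The adjusted p was 0.113 in the edgeR fit over all libraries and 0.0195 without cocultured replicate 3. The summed FPKM of the 7 enzymes was between 228 and 232 in the lone libraries and 273, 270.1 and 239.8 in the cocultured ones. In CPM, which unlike FPKM was scaled by TMM, the sums overlapped. They were between 1473 and 1493 alone and between 1492 and 1705 in coculture. Leaving out cocultured replicate 3 also moved the median log2 fold change of the 7 enzymes to 0.26 and the number called to 3.

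The efflux genes showed the largest changes and went in opposite directions. Of the 3, 2 were called (66.7%, beside 37.1% of all genes tested). Abca1 (ENSMUSG00000015243, chr4:53030787-53159895), the transporter that loads cholesterol and phospholipid onto apolipoproteins, fell by the largest amount of the 33 members. It had 96.3, 91.4 and 93.9 CPM alone and 30.8, 29.5 and 30.4 CPM in coculture, from counts of 1241, 1157 and 1111 and 414, 375 and 400. The 3 libraries of each group lay close together and far from the other group. Abca1 was 3.11-fold lower in coculture, with a log2 fold change of −1.63 ± 0.0685 (SE), a 95% interval of −1.79 to −1.48 and an adjusted p of 2.18e-07 (edgeR). Of all genes tested, 4.0% had a lower log2 fold change.

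Abcg1 (ENSMUSG00000024030, chr17:31057698-31115777), which moves cholesterol out to lipoprotein particles, rose. It had 3.34, 2.53 and 2.54 CPM alone and 4.76, 5.89 and 5.40 CPM in coculture, from only 43, 32 and 30 counts and 64, 75 and 71 counts. The groups did not overlap, and the level was 1.90-fold higher in coculture, with a log2 fold change of 0.93 ± 0.198 (SE) and a 95% interval of 0.48 to 1.38 (adjusted p = 0.00546, edgeR). Leaving out lone replicate 1 gave a log2 fold change of 1.07, and leaving out cocultured replicate 1 gave 1.01, both past the fold limit of 2. Per length Abcg1 was far below Abca1, at 0.652 ± 0.107 FPKM against 8.69 ± 0.220 FPKM alone. In coculture the levels were 1.30 ± 0.134 FPKM and 2.92 ± 0.0811 FPKM (SD, n = 3 each), so that the ratio of Abca1 to Abcg1 FPKM was 13.5 ± 1.78 (SD, n = 3) alone and 2.27 ± 0.293 (SD, n = 3) in coculture. Mylip, a ubiquitin ligase that lowers a lipoprotein receptor, had 5.12, 7.90 and 6.85 CPM alone and 6.84, 7.15 and 6.31 CPM in coculture (95% interval of the log2 fold change −0.38 to 0.45).

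Both efflux transporters are also used by macrophages. Of the 10 macrophage markers, 7 were tested and 6 of these fell (85.7%, beside 20.0% of all genes tested called lower). Adgre1, which encodes F4/80, had counts of 71, 47 and 55 alone and 0 in each cocultured library, and Ptprc, the pan-leukocyte antigen, 14, 12 and 11 alone and 0 in each cocultured library. Cd14 did not pass the test. The summed macrophage marker level was between 60.5 and 63.2 CPM alone and between 20.4 and 21.9 CPM in coculture, next to Abca1 at between 91.4 and 96.3 CPM and between 29.5 and 30.8 CPM. The sum joins markers that moved by unlike amounts. Lyz2 was 8.27-fold, Fcgr3 4.75-fold, Csf1r 3.44-fold and Cd68 1.90-fold lower in coculture, and the mean of Cd14 was 11.2 CPM in both groups. The part of these markers in the Abca1 and Abcg1 results was not tested.

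**Figure D3:**
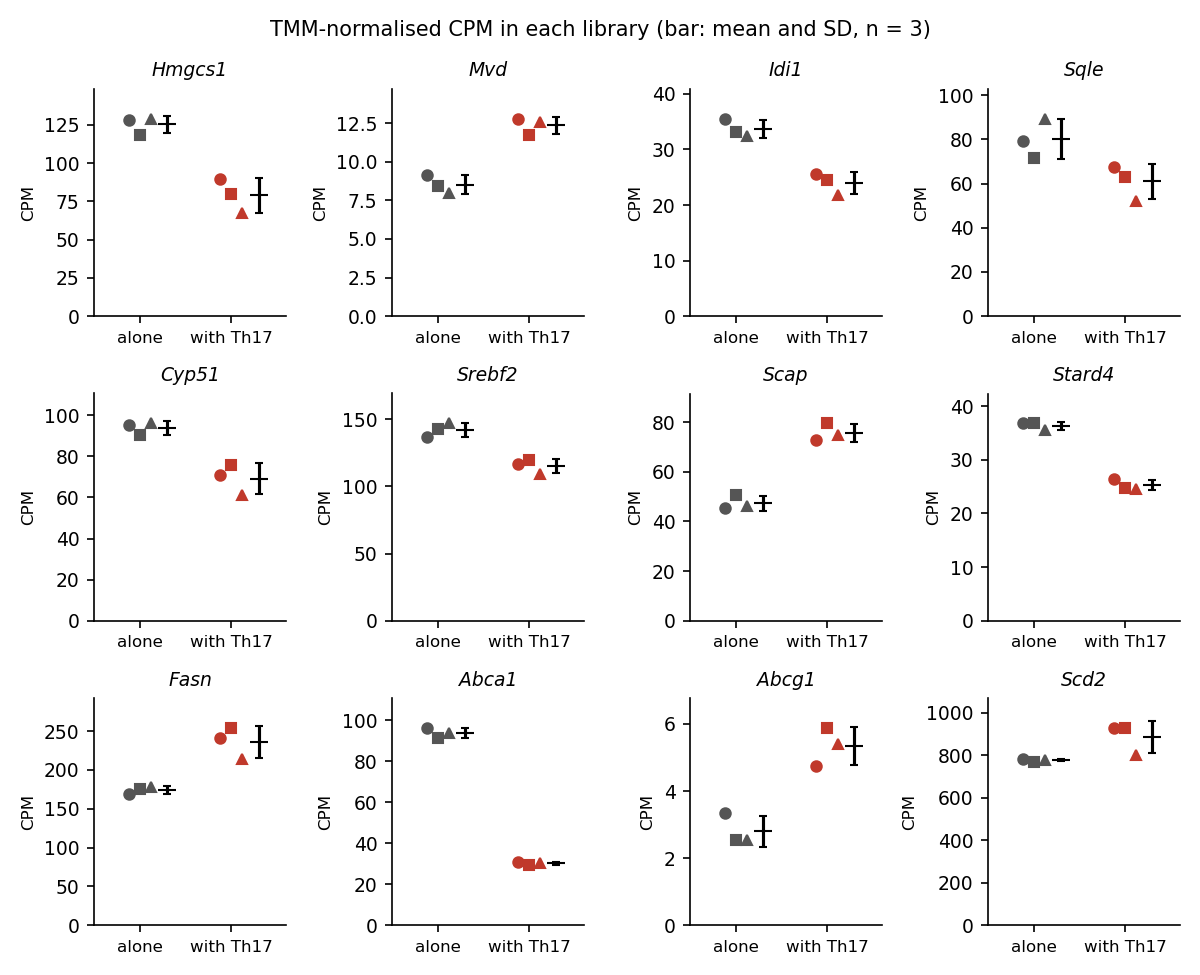
CPM in each library (y axis, from 0) for the 11 members called and for Scd2, which missed the threshold. Circles, squares and triangles are replicates 1, 2 and 3, grey alone and red with Th17 cells, and bars give the mean and SD of 3 libraries. Abca1 fell from above 91 to below 31 CPM, and in Fasn and Scd2 cocultured replicate 3 is the lowest of its group.

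The 4 ratios within a library were chosen after the values were seen. For each, the groups did not overlap, which gives an exact two-sided permutation p of 0.1, the smallest that 3 libraries against 3 allow, and 0.1 after Benjamini-Hochberg adjustment over the 4. The design cannot reach the threshold for a single ratio.

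Other genes of the same pathways were then examined. Their lists were chosen with earlier results of these data known, so the shares called only describe these lists. Of 26 further sterol and SREBP genes, all tested, 4 rose and 7 fell (42.3% called, beside 37.1% of all genes). Gramd1b, which moves plasma membrane cholesterol to the endoplasmic reticulum, rose from 31.5 ± 5.17 to 51.5 ± 5.04 CPM (mean ± SD of 3 libraries; 0.71 on the log2 scale, adjusted p = 0.00237, edgeR). Por, the electron donor of Cyp51 and Sqle, had a log2 fold change of 0.45, Npc1, which exports cholesterol from lysosomes, 0.43, and Cyb5r3, a reductase that feeds sterol desaturation, 0.20. Rnf139, a ubiquitin ligase of the sterol feedback, fell from 50.6 ± 2.90 to 29.6 ± 3.65 CPM (mean ± SD of 3 libraries; −0.77 on the log2 scale, adjusted p = 0.000358, edgeR). Its relative Rnf145 had −0.55, the sterol-regulated membrane protein Tmem97 −0.46 and the mitochondrial thiolase Acat1 −0.42. Npc1 and Gramd1b, genes of cholesterol transport, thus rose while Stard4 and Tmem97 fell. Npc2, the other Niemann-Pick type C gene beside Npc1, also fell (log2 fold change −0.36, adjusted p = 0.00216, edgeR).

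Of 30 further fatty acid and lipid genes, 27 were tested, 7 rose and 6 fell (48.1%, beside 37.1% of all genes). Lpin1, a phosphatidate phosphatase of triglyceride synthesis, rose from 10.3 ± 1.24 to 18.2 ± 1.68 CPM (mean ± SD of 3 libraries; 0.82 on the log2 scale, adjusted p = 0.00111, edgeR). Hacd3, a dehydratase of fatty acid elongation, had a log2 fold change of 0.61, the elongase Elovl4 0.50 and Dgat1, the last step of triglyceride synthesis, 0.37. Fads2, the desaturase of polyunsaturated fatty acids, fell from 110.3 ± 3.62 to 68.2 ± 10.8 CPM (mean ± SD of 3 libraries; −0.69 on the log2 scale, adjusted p = 0.000915, edgeR). Gpam, which starts glycerolipid synthesis, had −0.68, and the dehydratases Hacd2 and Hacd1 −0.64 and −0.50. Members of the Hacd family therefore went both ways.

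Of 13 LXR and oxysterol genes, 12 were tested, 5 rose and 2 fell (58.3%, beside 37.1% of all genes). The 2 that fell passed a fold change of 2. Of all genes tested, 7.78% were called lower past that limit and 11.6% in either direction. Smpdl3a, a phosphodiesterase, fell from 10.5 ± 0.946 to 3.88 ± 0.897 CPM (mean ± SD of 3 libraries, −1.43 on the log2 scale, adjusted p = 0.000354, edgeR). Cyp7b1, which hydroxylates oxysterols for removal, fell from 21.2 ± 3.96 to 8.61 ± 1.11 CPM (mean ± SD of 3 libraries; −1.30 on the log2 scale, adjusted p = 0.000257, edgeR). Both went in the direction of Abca1. Rxra, the partner of LXR, rose from 34.8 ± 1.24 to 62.0 ± 3.12 CPM (mean ± SD of 3 libraries; 0.83 on the log2 scale, adjusted p = 3.40e-05, edgeR). Arl4c, Nceh1 and Abca7, a small GTPase, a cholesterol ester hydrolase and a relative of Abca1, had log2 fold changes of 0.72, 0.69 and 0.51, the direction of Abcg1. Ch25h rose as well (log2 fold change 0.44, adjusted p = 0.0136, edgeR). Among the called genes, LXR targets were therefore found on both sides, Abca1 lower and Abcg1 and Arl4c higher. The other 5 genes tested in this list were not called, among them Lpcat3 (log2 fold change −0.08, adjusted p = 0.441, edgeR). The members Mylip, Srebf1 and Scd1 were not called either.

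**Figure D4:**
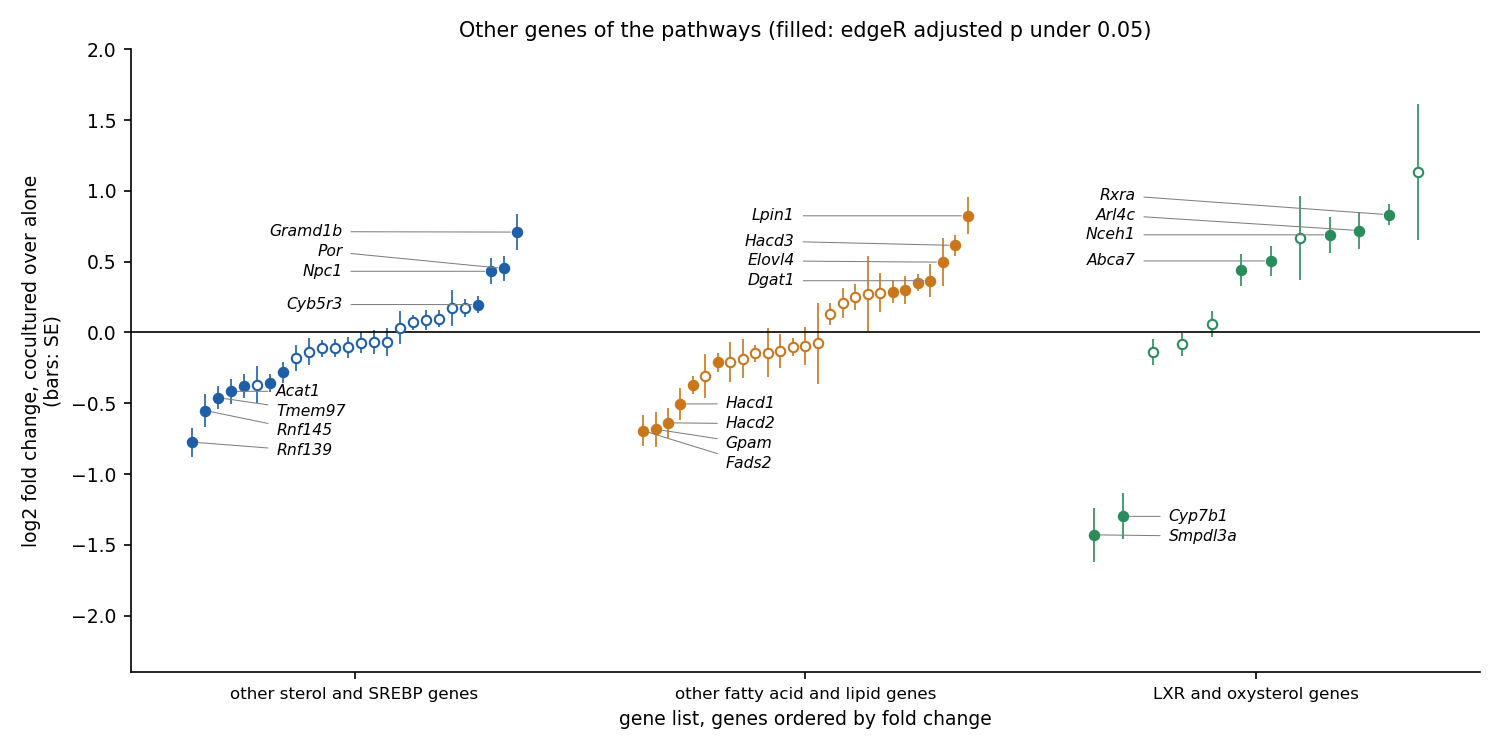
Log2 fold change, cocultured over alone (y axis, bars SE), of the tested genes of 3 further lists, 26 sterol and SREBP genes, 27 fatty acid and lipid genes and 12 LXR and oxysterol genes, ordered by fold change within a list. Filled points were called at an adjusted p below 0.05, and the named genes are the called ones with the highest and lowest values, such as Smpdl3a at −1.43 and Rxra at 0.83.

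Exons of 12 members overlap another annotated gene, on the opposite strand or in 4 cases on the same strand. Among the 11 called members these are Hmgcs1, Idi1, Cyp51 and Scap, all with a gene on the opposite strand. Whether counting used strand was not given in the sources used here, so fragments of such partners cannot be told apart from those of the members. Of the other genes named, Gramd1b, Npc1, Cyb5r3, Rnf139, Hacd2, Ch25h, Lpcat3 and the markers Lck and Lipe overlap another gene as well.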

How the data were processed

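Total RNA of primary renal fibroblasts was sequenced in 6 libraries. Libraries were made with the VAHTS Universal V6 kit and run on an Illumina NovaSeq. Per the labels and the study's methods, reads were filtered by the authors with Seqtk and aligned to mm10 with HISAT2 2.0.4. They used StringTie 1.3.3b and deposited fragment counts per gene. The authors also deposited FPKM values, the count scaled to gene length and library total without TMM. Strand use, the handling of fragments that fit several genes and the annotation release were not given in the sources used here. Gene positions are those of the deposited table, and all 33 members matched GENCODE GRCm38.

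Samples were grouped by title and treatment label, and columns were matched to samples by the column names in the descriptions. The counts were tested with edgeR 4.0.16 in R 4.3.3 (filterByExpr with a minimum count of 10, TMM, glmQLFit and glmQLFTest over 13088 genes, Benjamini-Hochberg adjustment). A call required an adjusted p below 0.05, and the study's rule also a fold change above 2. The common dispersion was 0.0136. The SE is the size of the log2 fold change divided by the square root of F. Library totals were 12050529 to 13209581, and 3 counts equalled 0.223 to 0.254 CPM. Tests across genes were checked on simulated counts with 200 genes changed, against 4856 genes called in the data. There edgeR recovered 20% of the genes changed by 0.5 on the log2 scale, 71.2% at 1 and 100% at 2. A member that was not called may therefore have changed by a small amount. Alternatives were RLE factors, library size alone, upper quartile factors, DESeq2 1.42.0, no filter, at least 10 counts in every library, limma 3.58.1 on log2(FPKM + 1) and log2(FPKM + 0.1), a replicate block, glmTreat at a fold change of 1.2, and leaving out each library. The named genes are all members and, in each further list, the called genes with the 4 highest and 4 lowest log2 fold changes. Npc2, Ch25h and Lpcat3 were named in addition. The members and lists were chosen with earlier results of these data known. Promoters came from RefSeq (GRCm38.p6). Of the members, 7 had no promoter entry matched. The promoters printed hold no annotated GENCODE exon. Python 3.11.15, pandas 2.3.3, scipy 1.17.1 and matplotlib 3.10.9 were used.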

Additional observations from a re-analysis of the deposited data

How the results depend on the processing

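No result of the members that was called changed direction. In all 15 fits that gave a fold change, 26 of 33 members stayed as they were, called or not called. Of the 11 called members only Sqle lost its call in some of these fits. Acat2, Fdps, Sc5d, Acaca, Elovl6 and Scd2, not called in the main fit, gained a call in some. Sterol enzymes called higher numbered 4 with library size alone, 3 with limma on log2(FPKM + 1) and 4 on log2(FPKM + 0.1), against 1. Over all genes tested, those called higher numbered 2916, 2841 and 2843 in these fits, against 2244. They numbered 2272 with RLE factors, 2310 with upper quartile factors and 2161 with at least 10 counts in every library, where 12102 genes were tested. Fatty acid enzymes called higher numbered 2 with RLE factors, 3 with library size alone, 3 with upper quartile factors, 3 with at least 10 counts in every library and 2 in both limma fits, against 1, and 1 to 3 when a library was left out. Their median log2 fold change was 0.16 to 0.26 when a library was left out, the highest without cocultured replicate 3. Sterol regulators called lower numbered 1 under glmTreat, where Srebf2 and the enzyme gene Sqle lost their calls, against 2. Members past a fold change of 2 numbered 1 to 2 when a library was left out, Abcg1 joining Abca1 without lone replicate 1 or cocultured replicate 1. The cause of these shifts was not tested. Replicate numbers were not a stated pairing, and the deviations of same-numbered libraries correlated at 0.0191, −0.00851 and −0.0072. With a replicate block the members were again 4 higher and 7 lower, and the block left 2053 genes higher and 2460 lower over the whole table. Abcg1, Tm7sf2 and Acss2 had few counts, and the 95% interval of Tm7sf2 does not exclude a change of the size of the fold limit. With 3 libraries a group, no single-gene permutation test could pass the threshold.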
